A study of Rattus with 27 samples.

Results

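Potassium channel genes were followed in brain, white blood cells and spleen from rats of an experimental stroke study. The set held every gene on the array whose symbol begins with Kcn, the prefix of the potassium channel families, followed by further letters and a number, and 83 of 14506 genes met this rule. Kcnip1 and Kcnip2 had 2 probes each, of which the one with the higher mean over all arrays was used, and each of the other genes had 1. The study compared 9 Sprague Dawley rats, 3 per group, at 6 h, with 1 Affymetrix array for each of 3 tissues of a rat. Sham rats (numbered 3, 4 and 5) had anaesthesia and separation of the vessels only. All other rats underwent middle cerebral artery occlusion (MCAO), which closes a large cerebral artery to model ischaemic stroke. Their samples carry the labels model (rats 1, 2 and 3) and vehicle (rats 2, 4 and 5, separate animals from those of the same number in other groups). The treatment protocol names a vehicle control and a group given YJ (Yiqi Jiedu formulae) at 25 mg/kg, and no label states which of the labelled groups received it. The groups are therefore called model-labelled and vehicle-labelled, and none is called treated. Age and sex are not in the labels used here. The question behind the comparisons, from the series title, was how this herbal formula acts on inflammation in the centre and the periphery after cerebral ischaemia.

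Potassium channels let potassium ions leave the cell and so pull the membrane potential back to rest. The voltage-gated (Kv) families end the action potential and set firing rates, the inward rectifiers and the K2P leak channels hold the resting potential, and calcium-activated and sodium-activated channels link the potential to the ions that enter during activity. Many of the genes in the set encode proteins that form no channel on their own. They are Kv beta subunits, Kv channel interacting proteins (KChIPs), KCNE subunits, the beta subunits of the large-conductance calcium-activated (BK) channel, and silent Kv subunits. Silent subunits only work inside a channel built with other Kv proteins. In lymphocytes the membrane potential that drives calcium entry rests largely on Kcna3 and Kcnn4, and in vessel walls the ATP-sensitive channel with Kcnj8 as its pore lowers muscle tone.

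All values are the deposited log2 intensities. They carry no detection call, so a low value cannot be told from an absent transcript, and the levels of different probes cannot be compared. Of the 83 genes, 33 lay above the 40th percentile of mean value over the 27 arrays. The tissue labels matched their markers. The mean of 12 neuron markers was between 8.86 and 9.99 on the brain arrays and at most 4.77 on any other array. That of 5 spleen stroma markers was at least 7.14 in spleen and at most 4.74 on any other array. The mean of 3 platelet markers was at least 11.71 in the white cell samples, which therefore held platelet RNA. Whole homogenates and mixed blood cells were measured, and fewer cells of a type cannot be told apart from less RNA per cell. In brain, sham rat 5 and the vehicle-labelled rat numbered 2 stood apart on regional markers. The mean of 4 cortex and hippocampus markers was 5.37 and 5.84 on these arrays and between 7.04 and 7.59 on the other 7. Counts and calls that turn on them are given with and without them, as are differences between groups in brain that they move by more than 1.5 times.

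In sham rats, 41 of the 83 potassium channel genes were higher in brain than in both other tissues, 4 were highest in white blood cells and 1 in spleen. The share of all genes with each such joint pattern was not counted, so these pattern counts have no background. Among the 41, Kcnh3 had brain and spleen arrays that overlapped. A gene was called different at an adjusted p under 0.05 (limma, Benjamini-Hochberg over all 14506 genes). Against spleen, 56 of the 83 genes were called (67.5%, beside 51.2% of all genes). Of these, 52 (62.7%) were higher in brain and 4 (4.82%) lower, beside 24.9% and 26.4% of all genes. The median difference of the 83 genes was 0.81 on the log2 scale, beside -0.02 over all genes. Against white blood cells, 53 genes were called (63.9%, beside 55.1%), 42 (50.6%) higher in brain and 11 (13.3%) lower, beside 26.8% and 28.2% of all genes. The median was 0.55, beside -0.12. Both comparisons share the sham brain arrays. The white cell genes were Kcna3, Kcnab1, Kcne3 and Kcne5, and the spleen gene was Kcnj8. A further 3 genes (Kcnj1, Kcnk6 and Kcnn4) were lower in brain than in both other tissues, while 16 genes had no call in any tissue comparison and 18 had other patterns. Without the brain array of sham rat 5 the calls were 61 against spleen and 58 against white cells, and without all 3 of that rat's arrays they were 56 and 52.

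**Figure D1:**
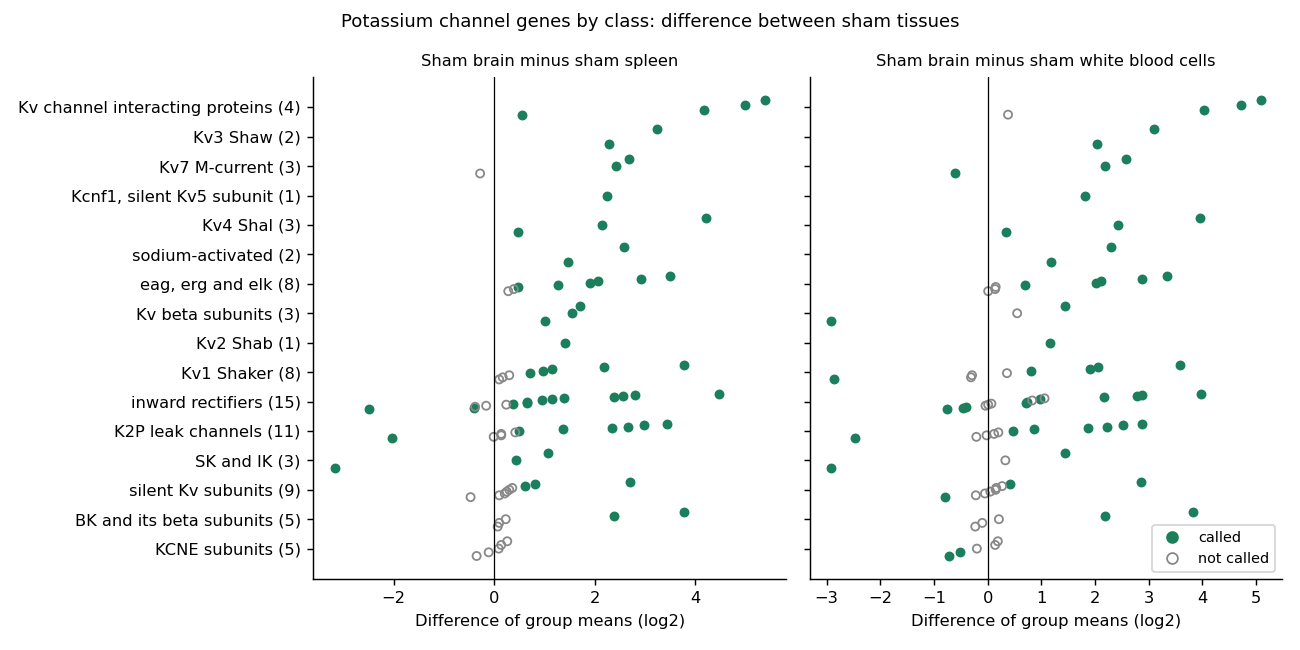
Differences between sham tissues for each of the 83 genes, grouped by channel class (number of genes in parentheses, ordered by the class median against spleen). The x axes give brain minus spleen (left) and brain minus white blood cells (right) in log2 units, each from 3 arrays per tissue. Filled points were called at an adjusted p under 0.05, and the KChIP genes reach the right edge with Kcnip4 at 5.38 and 5.09.

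Of the KChIPs, calcium-binding proteins that attach to Kv4 channels, Kcnip4 and Kcnip3 had the largest differences of the set in both brain comparisons. Kcnip4 read 8.05, 8.19 and 8.08 in sham brain (rats 3, 4 and 5), 2.83, 3.13 and 3.10 in sham white cells and 2.76, 2.65 and 2.77 in sham spleen. Brain was apart from the other tissues on every array, by 5.38 ± 0.12 (SE) against spleen (adjusted p = 2.07e-10) and 5.09 ± 0.12 against white cells (adjusted p = 1.71e-10). Kcnip3, which also acts as a calcium-dependent transcription factor, read 10.59, 10.43 and 8.44 in sham brain against 4.79 to 4.85 in spleen. It was 5.00 ± 0.44 higher than in spleen, with the low value on the array of sham rat 5. Kcnip1 was 4.17 ± 0.22 higher in brain than in spleen. A second Kcnip1 probe had sham means of 4.03 in brain and 3.11 in spleen, a smaller contrast in the same direction. For Kcnip2 the probe in use gave 0.56 ± 0.18 against spleen and no call against white cells, whereas its unused probe had sham means of 6.24 in brain, 3.47 in spleen and 3.80 in white cells. The choice of probe thus sets how brain-rich Kcnip2 appears.

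Pore-forming Kv genes followed the same direction in most classes. All 3 Kv4 genes, which carry the transient A-type current in dendrites, were higher in brain against both tissues. Kcnd2 led them with 7.77, 7.67 and 7.83 in sham brain, 3.97, 3.63 and 3.79 in white cells and 3.31, 3.50 and 3.83 in spleen, a difference of 4.21 ± 0.15 against spleen. Both Kv3 genes, typical of fast-firing neurons, were called, with Kcnc2 at 3.24 ± 0.13 and Kcnc1 at 2.29 ± 0.14 against spleen. Among the Kv7 genes, Kcnq3 (2.69 ± 0.31) and Kcnq5 (2.43 ± 0.49), which carry the M-current that restrains repetitive firing, were higher in brain than in spleen. Kcnq1, a channel of heart and epithelia, was lower in brain than in white cells (-0.61 ± 0.17). Of the 8 eag, erg and elk genes, 6 were higher in brain than in spleen and 5 higher than in white cells, led by Kcnh7 at 3.50 ± 0.44 and 3.34 ± 0.44. Kcnb2, the measured Kv2 gene, was 1.40 ± 0.13 above spleen. The sodium-activated channels Kcnt1 and Kcnt2 were higher in brain than in spleen by 1.46 ± 0.19 and 2.58 ± 0.36.

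Of the 8 Kv1 genes, Kcna1, Kcna2, Kcna4 and Kcna6 were higher in brain than in both other tissues, and Kcna3 was highest in white cells. Kcna5 was called only as higher in brain than in spleen, and Kcna10 only as higher in white cells than in spleen. Kcna7 had no call. Kcna1, a channel of axons, read 7.67, 7.27 and 6.79 in sham brain and no higher than 4.00 on any sham array of the other tissues, a difference of 3.77 ± 0.21 against spleen (adjusted p = 5.53e-08). Kcna2, its axonal partner, was 0.97 ± 0.15 above spleen and 2.05 ± 0.15 above white cells in brain, and it was the Kv1 gene with a lower value in white cells than in spleen (-1.08 ± 0.15, adjusted p = 0.000222). Kcna4 and Kcna6 were also higher in brain than in both tissues, by 1.15 ± 0.17 and 2.19 ± 0.25 against spleen. Kcna3, the Kv channel of lymphocytes, ran the other way. Its values were 9.42, 9.56 and 10.15 in sham white cells, 6.46, 6.72 and 7.35 in brain and 6.49, 6.83 and 6.71 in spleen, so brain and spleen overlapped and white cells stood clear of both. White cells were higher than spleen by 3.03 ± 0.24 (adjusted p = 3.84e-06), and brain minus white cells was -2.87 ± 0.24. Beside this, 6 of 9 T cell markers were higher in white cells than in spleen. Their list means were 8.28 to 9.04 and 7.46 to 8.18 on the sham arrays. The mean of 4 B cell markers went the other way, at 7.89 to 8.26 in white cells and 9.07 to 9.52 in spleen. That of 3 platelet markers was higher in white cells, at 11.71 to 12.23 against 9.15 to 10.06. The part of these cells in the Kcna3 difference was not tested.

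Kv beta subunits, cytoplasmic partners of Kv1 channels with an aldo-keto reductase fold, held the largest excess of white cells over spleen. Kcnab1 read 10.37, 10.24 and 10.74 in sham white cells, 8.02, 7.78 and 6.83 in brain and 6.14, 6.62 and 6.85 in spleen. White cells exceeded every array of the other tissues, by 3.91 ± 0.29 against spleen (adjusted p = 2.25e-06), with brain minus white cells at -2.91 ± 0.29 (adjusted p = 5.2e-06). Of the 3 platelet markers measured, 2 were higher in white cells than in spleen, with list means of 11.71 to 12.23 and 9.15 to 10.06 on the sham arrays, and their part in this difference was not tested. Kcnab2 was highest in brain (8.94, 9.14 and 8.11), lower in white cells (7.77, 8.52 and 8.25) and lowest in spleen (7.39, 7.30 and 6.86). The step from white cells to spleen was called at 1.00 ± 0.27 (adjusted p = 0.0165) and was lost without the white cell array of sham rat 4 or 5 or the spleen array of sham rat 5 (adjusted p of 0.0642, 0.0509 and 0.0718). Brain and white cells were not called different (0.55 ± 0.27). The brain value of sham rat 5 lay 0.93 below the mean of sham rats 3 and 4. The brain arrays of sham rats 3 and 4 were above all sham white cell arrays.

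**Figure D2:**
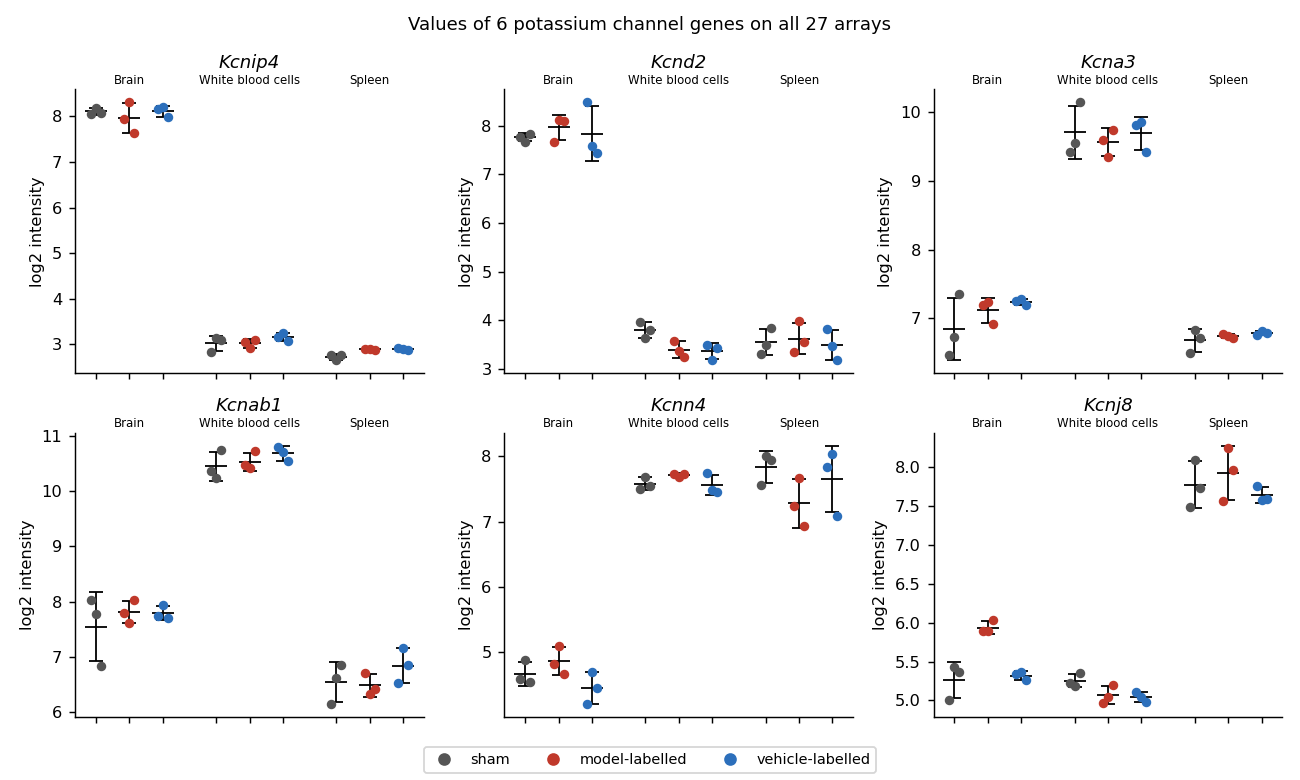
Deposited log2 intensity of 6 genes (y axis, a separate range for each gene) on all 27 arrays, grouped on the x axis by tissue and, within a tissue, by sham, model-labelled and vehicle-labelled rats. Points are arrays, and the lines show the mean and SD of 3. Kcnip4 and Kcnd2 are high in brain only, Kcna3 and Kcnab1 stand highest in white blood cells, Kcnn4 is low in brain and Kcnj8 is high in spleen.

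The calcium-activated channels held genes high in brain and, in Kcnn4, a gene low there. Kcnma1, the pore of the BK channel, read 8.29, 7.94 and 7.23 in sham brain, at most 4.17 in white cells and at most 4.13 in spleen, and was 3.83 ± 0.22 above white cells (adjusted p = 5.96e-08). Its neuronal beta subunit Kcnmb4 was 2.39 ± 0.42 above spleen, while Kcnmb1, Kcnmb2 and Kcnmb3 had no call in any tissue comparison. The small-conductance gene Kcnn3 was 1.07 ± 0.19 above spleen in brain. Kcnn4, the intermediate-conductance channel of lymphocytes and red cells, read 4.58, 4.88 and 4.54 in sham brain, 7.50, 7.69 and 7.55 in white cells and 7.56, 8.01 and 7.95 in spleen. Brain minus spleen was -3.17 ± 0.15 (adjusted p = 1.36e-08) and brain minus white cells -2.91 ± 0.15, and no call separated the blood cells from the spleen (-0.26 log2).

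Among the 15 inward rectifiers, 10 were higher and 2 lower in brain than in spleen. Kcnj3, a G-protein-gated subunit that slows neurons, read 8.43, 8.59 and 7.12 in sham brain against 3.94 to 4.31 in white cells and 3.41 to 3.69 in spleen, and was 4.47 ± 0.31 above spleen. The other neuronal G-protein-gated subunits Kcnj6 and Kcnj9 were 2.39 ± 0.25 and 1.16 ± 0.14 above spleen, and Kcnj10, the main channel of astrocytes, 2.81 ± 0.18. Kcnj8 was the 1 gene of the set called higher in spleen than in both other tissues. It read 7.49, 8.09 and 7.73 in sham spleen, 5.00, 5.43 and 5.37 in brain and 5.22, 5.19 and 5.35 in white cells, with differences of -2.52 ± 0.17 for white cells minus spleen (adjusted p = 1.13e-06) and -2.50 ± 0.17 for brain minus spleen. Abcc9, which encodes the sulphonylurea receptor that pairs with this pore, was also lower in white cells than in spleen (-1.83 ± 0.21, adjusted p = 6.35e-05). Beside these, 5 of 6 endothelium and pericyte markers and 3 of 4 smooth muscle markers were lower in white cells than in spleen, and their part was not tested. Kcnj1, a channel of the kidney tubule, was lower in brain, with differences of -0.41 ± 0.15 from spleen (adjusted p = 0.0419) and -0.76 ± 0.15 from white cells. The call against spleen was lost without any 1 of the 6 brain and spleen arrays or the white cell array of sham rat 4, and its adjusted p ranged from 0.0068 to 0.162 over the alternatives.

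Of the 11 K2P leak channel genes, Kcnk1, Kcnk2, Kcnk4, Kcnk9 and Kcnk10 were higher in brain than in both other tissues. Kcnk3 was called higher in brain than in spleen only, and Kcnk12 higher than in white cells only. Kcnk13, Kcnk15 and Kcnk18 had no call in any tissue comparison. The TREK and TRAAK genes (Kcnk2, Kcnk10 and Kcnk4) respond to stretch and lipids. They were higher in brain than in spleen by 2.66 ± 0.15, 1.36 ± 0.26 and 2.35 ± 0.39, and the acid-sensitive Kcnk9 by 2.98 ± 0.23. Kcnk1 declined from brain through white cells to spleen, with sham means of 8.17, 5.65 and 4.73, and each step was called (2.52 ± 0.26 and 0.92 ± 0.26). The smaller step was lost without the spleen array of sham rat 3 or 4 or the white cell array of sham rat 5 (adjusted p of 0.0548, 0.0743 and 0.0784). Kcnk6 was the K2P gene of the periphery. Its values were 4.6, 4.08 and 3.48 in sham brain, 6.89, 6.54 and 6.15 in white cells and 6.15, 6.16 and 5.93 in spleen, and brain was lower than both, by -2.47 ± 0.26 against white cells (adjusted p = 8.43e-06) and -2.03 ± 0.26 against spleen (adjusted p = 4.59e-05).

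The auxiliary KCNE genes and the silent Kv subunits showed few brain calls. None of the 5 KCNE genes, small membrane proteins that change the gating of Kv pores, was called higher in brain. Kcne3 (4.25, 3.67 and 3.48) and Kcne5 (6.23, 6.05 and 6.42) were higher in sham white cells than in spleen, by 0.80 ± 0.19 and 0.65 ± 0.13, and Kcne4 was lower there (-0.50 ± 0.14, adjusted p = 0.0209). The Kcne4 call was lost without the white cell or the spleen array of sham rat 3 or of sham rat 5, with adjusted p from 0.0554 to 0.0862. It was also lost without all 3 arrays of sham rat 5 (0.101), with quantile normalization (-0.39, adjusted p = 0.06) and with median centring (-0.34, adjusted p = 0.0738). Of the 9 silent subunits of the Kcng, Kcns and Kcnv families, 3 were higher in brain than in spleen (Kcnv1, Kcng3 and Kcng4), and so was Kcnf1, a silent subunit of another family (2.25 ± 0.40). Kcnv1 was 2.71 ± 0.75 above spleen, with a wide error set by the array of sham rat 5. Kcns3 was lower in brain than in white cells (-0.79 ± 0.28, adjusted p = 0.0324), and with the rat as a block the adjusted p was 0.0508. The call was also lost without the white cell array of sham rat 4 (adjusted p = 0.0587) or 5 (0.12), or the brain array of sham rat 5 (0.0952). Without all 3 arrays of sham rat 5 the Kcns3 difference was -0.33 (adjusted p = 0.195).

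Between the peripheral tissues, 16 of the 83 genes were called (19.3%, beside 33.7% of all genes), 13 higher (15.7%) and 3 lower (3.61%) in white cells than in spleen, beside 16.0% and 17.8% of all genes. The median of the 83 genes was 0.22, beside 0.12 over all genes. Centring each array on its median moved the median of all genes by 0.16 to 0.28 and gave 31 calls, 29 higher and 2 lower. Leaving out the brain array of sham rat 5 gave 26 calls and leaving out the spleen array of that rat gave 9. The differences of Kcnab1, Kcna3, Kcnj8 and Kcna2 kept their direction and call in all of the 19 alternatives run for each.

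Other ion transport genes gave a setting for these numbers. Of 19 calcium channel genes, 18 were higher in brain than in spleen and 18 higher than in white cells, with Cacng2 at 5.19 ± 0.16 against spleen. Among 18 partners of potassium channels outside the Kcn prefix, 14 were higher in brain than in spleen, led by Dpp6 (5.49 ± 0.20) and Dpp10 (4.86 ± 0.14), which bind Kv4 channels together with the KChIPs. Sodium channels had 7 of 11 genes higher in brain against spleen, the pacemaker HCN channels 3 of 3, and the sodium pump and cation-chloride carriers 4 of 7 with the other 3 lower.

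Over the 9 comparisons of groups within a tissue, 1 of the 83 potassium channel genes was called, in 1 comparison. That gene was Kcnj8 in the brain. It read 5.00, 5.43 and 5.37 in sham rats, 5.89, 5.89 and 6.03 in model-labelled rats and 5.34, 5.36 and 5.26 in vehicle-labelled rats. All 3 model-labelled arrays lay above the other 6. The gene was 0.67 ± 0.13 higher in model-labelled than in sham brain (adjusted p = 0.0463), and 1 call among 83 genes compares with 1.16% of all genes called and 1.08% called higher. Vehicle-labelled brain was 0.05 ± 0.13 from sham, and its difference from model-labelled brain, -0.62 ± 0.13, did not pass the test (adjusted p = 0.141). The call was kept in 6 of 19 alternatives, the difference lay between 0.54 and 0.80 in all of them, and the adjusted p between 0.0103 and 0.48. It was lost without any 1 of the sham or model-labelled arrays, or without vehicle-labelled rat 4 or 5. The means of some marker lists of other cells were also higher in model-labelled than in sham brain. For endothelium and pericytes the 6-gene mean was 6.72, 6.87 and 6.96 in model-labelled brain, 6.48 to 6.56 in sham brain and 6.51 to 6.60 in vehicle-labelled brain. Of these 6 markers Flt1 was called (0.73 ± 0.14, adjusted p = 0.0375), while Cldn5 had a difference of -0.37 ± 0.12 and Pdgfrb one of -0.11 ± 0.11. The mean of 6 monocyte and macrophage markers was 5.93 to 6.16 in model-labelled brain, 5.40 to 5.54 in sham brain and 5.40 to 6.04 in vehicle-labelled brain, with Cd14 called (2.26 ± 0.32, adjusted p = 0.00901). The mean of 8 neutrophil markers was 4.80 to 5.14, 4.09 to 4.34 and 4.39 to 4.62 in the same order, with none called. Vehicle-labelled rats 4 and 5 both had a monocyte and macrophage mean of 6.04, within the model-labelled range, with Kcnj8 at 5.36 and 5.26. For 4 smooth muscle markers the model-labelled and sham means overlapped, at 6.09 to 6.58 and 6.12 to 6.40, with 6.00 to 6.14 in vehicle-labelled brain. The part of these cells in the Kcnj8 difference was not tested.

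Across the 83 genes, model-labelled minus sham brain had a median of 0.16, beside 0.03 over all genes, and a range of -1.48 to 1.53. The ends of this range were Kcnj16 and Kcnv1. For these the array of sham rat 5 departed by 4.04 and -3.62 from the mean of sham rats 3 and 4. Brain arrays other than sham rat 5 and vehicle-labelled rat 2 read 4.05 to 5.28 for Kcnj16 and 7.33 to 8.11 for Kcnv1. The model-labelled means were 4.56 and 8.02. At an unadjusted p under 0.05 there were 7 genes (8.43%), beside 14.4% of all genes. Without overlap between the groups, 11 genes were higher and 1 lower, beside 11.7% and 8.34% of all genes, so these counts are near or under the background. The gene with the smallest p in each class is given next, and none of them besides Kcnj8 passed the test. Kcne4 read 5.09, 5.18 and 5.25 in sham and 5.53, 5.83 and 5.74 in model-labelled brain, a difference of 0.53 ± 0.12 (adjusted p = 0.0982). Kcnh5, an eag channel of neurons, read 6.16, 6.74 and 5.70 against 6.89, 7.56 and 7.32, a difference of 1.06 ± 0.26 (adjusted p = 0.106). Kcns2, a silent subunit, read 4.73, 4.70 and 4.38 against 5.17, 5.23 and 5.40, a difference of 0.66 ± 0.17 (adjusted p = 0.134). In these 3 genes no model-labelled array overlapped sham. The single-gene class of Kcnf1, a silent subunit, read 7.07, 7.32 and 5.35 in sham against 8.58, 7.70 and 8.02, a difference of 1.52 ± 0.70 with an interval from -0.04 to 3.08. Without the pair of arrays that stand apart it was 0.90 ± 0.24 (adjusted p = 0.0985). Kcnip1 read 7.0, 7.28 and 8.01 against 6.52, 6.61 and 6.18, a difference of -0.99 ± 0.36 (adjusted p = 0.265), and its second probe gave 0.07. The leading members of the other classes had smaller differences: Kcnma1 0.51, Kcnc1 0.43, Kcnt1 0.38, Kcna7 0.28, Kcnb2 0.28, Kcnab1 0.27, Kcnq1 0.26, Kcnk12 0.25, Kcnd2 0.20 and Kcnn4 0.19, with adjusted p between 0.412 and 0.732. Without the pair that stands apart, 5 of these moved by more than 1.5 times, to 0.21 for Kcnma1, 0.17 for Kcnt1, 0.17 for Kcnb2, -0.09 for Kcnab1 and 0.05 for Kcnk12.

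**Figure D3:**
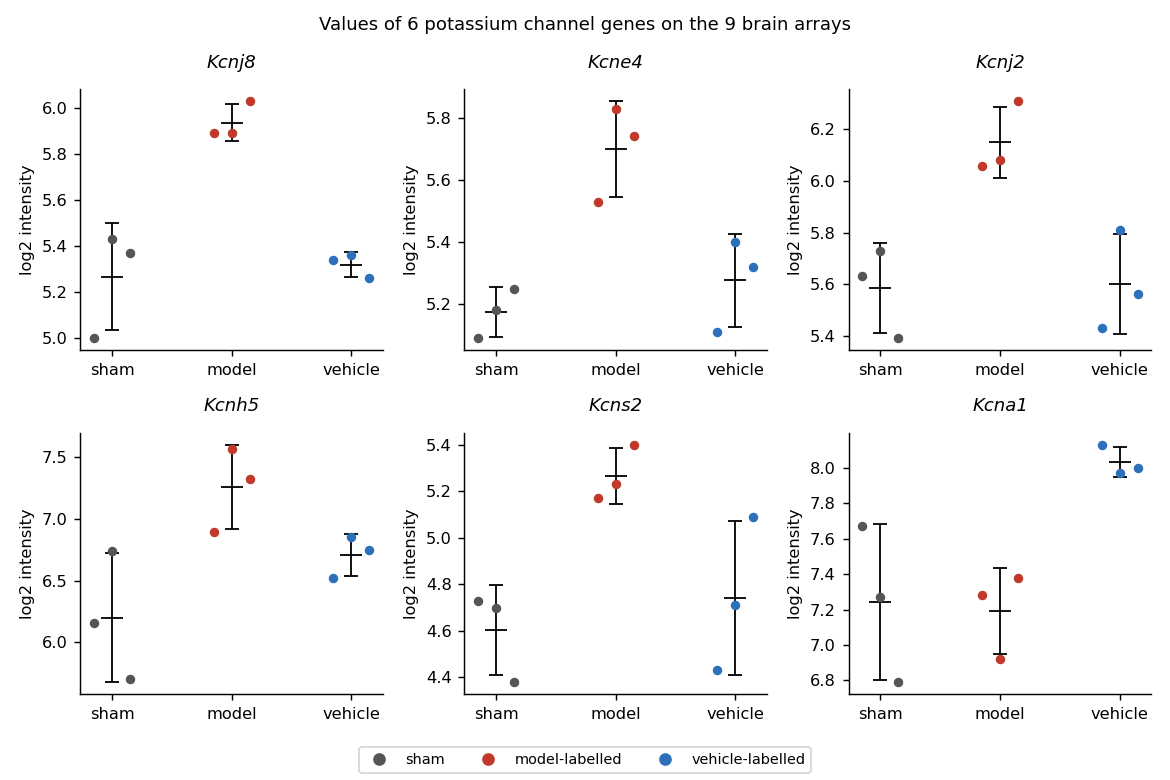
Deposited log2 intensity (y axis, a separate range for each gene) of 6 genes on the 9 brain arrays, by group on the x axis. Points are arrays, and the lines show the mean and SD of 3. The model-labelled arrays lie above all other arrays for Kcnj8, Kcne4, Kcnj2, Kcnh5 and Kcns2, and the vehicle-labelled arrays lie above all others for Kcna1, while only the model minus sham difference of Kcnj8 passed the test.

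In vehicle-labelled minus sham brain no potassium channel gene was called by limma, and 4 (4.82%) had an unadjusted p under 0.05, beside 0.0483% of all genes called and 9.33% with such a p. The smallest p belonged to Kcna1, with 7.67, 7.27 and 6.79 in sham and 8.13, 7.97 and 8.0 in vehicle-labelled brain. The groups did not overlap, and the difference was 0.79 ± 0.21 (adjusted p = 0.24). Without the pair that stands apart it was 0.52. Kcns1 (0.54 ± 0.20) and Kcnj10 (0.43 ± 0.17, and 0.21 without the pair) followed. In vehicle-labelled minus model-labelled brain no member was called either, with 9 genes (10.8%) at an unadjusted p under 0.05 beside 0.0551% of all genes called and 14.3% with such a p. Here Kcna1 differed by 0.84 ± 0.21 (adjusted p = 0.176) and Kcnj2, a strong inward rectifier of muscle and endothelium, by -0.55 ± 0.14 (adjusted p = 0.181). Kcnj2 read 6.06, 6.08 and 6.31 in model-labelled brain, 5.63, 5.73 and 5.39 in sham brain and 5.43, 5.81 and 5.56 in vehicle-labelled brain. Sham and vehicle-labelled arrays overlapped and the model-labelled arrays lay above both. These comparisons share arrays, so their values for a gene are not independent.

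Sham rat 5 and the vehicle-labelled rat numbered 2 set much of the error in these comparisons. On both of their brain arrays 30 of the 83 genes (36.1%) lay below all 7 other brain arrays and 10 (12.0%) above them, beside 11.0% and 11.6% of all genes. A difference of at least 1 log2 unit from the other arrays of the group was found for 16 of the 83 genes (19.3%) in sham rat 5, beside 4.37% of all genes. In vehicle-labelled rat 2 it was found for 17 (20.5%), beside 3.87%. Across the 83 genes the departures of these arrays from their own groups correlated with r = 0.87 (Spearman's rho 0.74), and with 0.82 when Kcnj16 was left out. Across all genes r was 0.55. Genes are not independent replicates, and the arrays were singled out because they stood apart, so these values are a description. Beside them, the mean of 12 neuron markers was 8.86 on the array of sham rat 5 and 9.45 on that of vehicle-labelled rat 2. On the other brain arrays it was 9.71 to 9.99. The mean of 11 thalamus and hypothalamus markers was 7.58 and 6.12 on these arrays, with 5.38 to 6.19 on the others. That of 7 oligodendrocyte markers was 8.49 and 9.20, with 7.06 to 8.70 on the others. The part of these cells, and that of the region sampled, was not tested.

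The departures reached into most classes. Kcnj16, a subunit that joins Kcnj10 in glia, read 8.73 and 8.61 on these arrays and between 4.05 and 5.28 on the other 7. It was the extreme case on the high side, 4.04 and 4.46 above the rest of each group. Kcnv1, a silent subunit, read 4.08 and 4.35 against 7.33 to 8.11, and the elk channel Kcnh3 read 4.62 and 5.00 against 7.19 to 8.27. These values were close to those of sham spleen, where Kcnv1 was 3.78 to 3.80 and Kcnh3 4.75 to 4.88. Kcnq5 read 5.32 and 5.57 against 7.38 to 8.02, Kcnf1 5.35 and 5.74 against 7.07 to 8.58, and Kcnj4 4.88 and 5.02 against 6.55 to 7.21. Of the 9 Kcng, Kcns and Kcnv genes 5 lay below the other arrays on both, as did Kcnf1, of the 8 eag, erg and elk genes 4, and of the 15 inward rectifiers 5. On the high side were also Kcnip1, Kcnk9, Kcnk10, Kcnd3, Kcnn3, Kcnh2, Kcnj5, Kcnh8 and Kcnmb2. A member can therefore be high in 1 part of a family and low in the next, as with Kcnip1 (8.01 and 8.07 against 6.18 to 7.28) and Kcnip3 (8.44 and 9.19 against 9.46 to 10.64). Kcnj13, a channel of the choroid plexus epithelium, was 1 of these inward rectifiers (3.17 and 3.12 against 3.40 to 5.87). Its highest value lay in model-labelled rat 3, at 5.87 beside at most 4.88 on the other brain arrays, and the mean of 5 choroid plexus markers was 6.85 in that rat and 4.31 to 5.47 in the others.

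**Figure D4:**
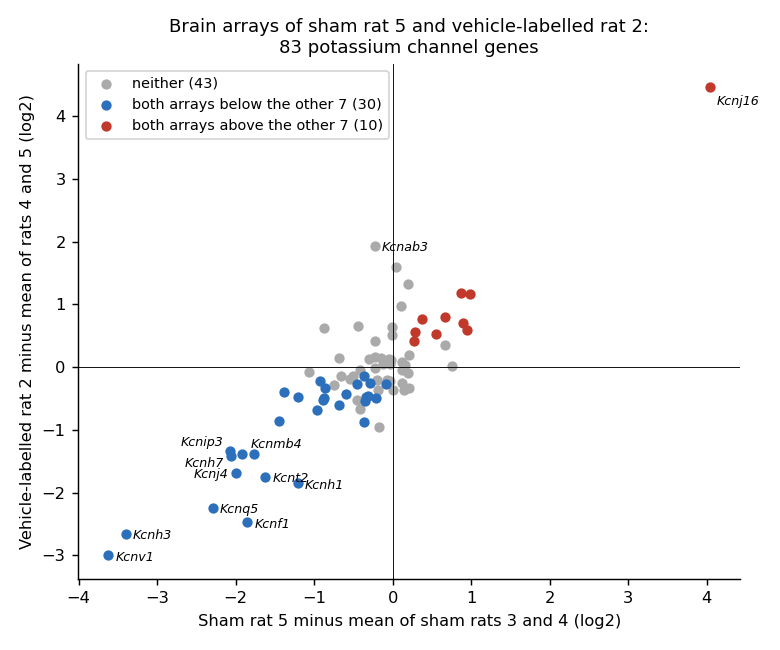
Departure of the brain array of sham rat 5 from the mean of sham rats 3 and 4 (x axis, log2) against that of vehicle-labelled rat 2 from the mean of rats 4 and 5 of its group (y axis, log2), 1 point for each of the 83 genes. Colours mark genes whose values on both arrays lie below (30) or above (10) those of the other 7 brain arrays. Most points run along the diagonal (r = 0.87), with Kcnj16 at the top right and Kcnv1 and Kcnh3 at the bottom left.

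Without this pair of arrays the median standard error of the 83 genes in model-labelled minus sham brain was 0.15 in place of 0.20. Kcnj8 was again called (0.72 ± 0.15, adjusted p = 0.0337), and so was Kcnip3, which was lower in model-labelled than in sham brain (-0.93 ± 0.14, adjusted p = 0.00593). The 2 sham arrays left for Kcnip3 read 10.59 and 10.43 and the model-labelled arrays 9.73, 9.54 and 9.46. With all arrays its difference was -0.24 ± 0.54. In this setting 2.24% of all genes were called, and 2 of 83 is near that share. In vehicle-labelled minus model-labelled brain, Kcnip3 (0.95 ± 0.14, adjusted p = 0.0228) and Kcnk4 (0.74 ± 0.12, adjusted p = 0.0316) were called without the pair, beside 0.434% of all genes. The 2 vehicle-labelled arrays left read 10.64 and 10.42 for Kcnip3 and 8.78 and 8.77 for Kcnk4, where the model-labelled arrays read 7.97, 8.13 and 8.01. In vehicle-labelled minus sham brain none of the 83 was called without the pair, beside 1.54% of all genes.

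In white blood cells limma called none of the 83 genes in any group comparison. For model-labelled minus sham, 6 genes (7.23%) had an unadjusted p under 0.05, beside 6.07% of all genes, and 0.0% of all genes were called. For vehicle-labelled minus sham there were 11 (13.3%), beside 13.4%, with 2.01% of all genes called, and for vehicle-labelled minus model-labelled 5 (6.02%), beside 10.9%, with 1.56% called. The mechanically gated leak channel Kcnk2 had the smallest p against sham. It read 4.32, 4.14 and 3.95 in sham, 4.05, 4.04 and 4.01 in model-labelled and 3.78, 3.76 and 3.57 in vehicle-labelled rats. The vehicle-labelled arrays lay below all others, with a difference of -0.43 ± 0.12 from sham (adjusted p = 0.103). Without the array of sham rat 5 the difference was -0.53 ± 0.13 (adjusted p = 0.0498). Kcne5 read 6.23, 6.05 and 6.42 in sham, 5.80, 5.62 and 5.79 in model-labelled and 5.75, 6.02 and 5.38 in vehicle-labelled rats, with differences of -0.50 ± 0.16 and -0.52 ± 0.16 from sham (adjusted p = 0.607 and 0.14). Kcnd2 (-0.40 and -0.42) and, in model-labelled rats, Kcnj3 (-0.46) had values of like size at low levels, between 3.19 and 4.31 on these arrays. Vehicle-labelled minus model-labelled differences were -0.33 for Kcnk2, -0.45 for Kcnab2 and 0.47 for Kcnj1, with adjusted p from 0.30 to 0.347. Kcna3 and Kcnab1, which stood highest in this tissue, had group means of 9.57 to 9.71 and 10.45 to 10.68 over the 3 groups.

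The makeup of the white cell samples was not the same in all groups. The mean of 7 erythroid markers was 9.75 to 10.50 in vehicle-labelled rats, 8.75 to 8.88 in model-labelled rats and 8.0 to 8.55 in sham rats, and that of 8 neutrophil markers 8.46 to 9.0, 7.01 to 7.68 and 6.68 to 7.08. Their part in the values of the channel genes was not tested. Of the partner genes outside the prefix, Nedd4l, a ubiquitin ligase that removes channels from the membrane, rose in vehicle-labelled white cells by 1.11 ± 0.22 against sham (adjusted p = 0.019) and by 1.19 ± 0.22 against model-labelled rats (adjusted p = 0.0141). It was the 1 gene called among the 5 lists of other ion transport genes in any of the 9 group comparisons.

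In spleen none of the 83 genes was called by limma either. Unadjusted p under 0.05 was found for 7 genes (8.43%) in model-labelled minus sham, beside 9.5% of all genes with 0.0414% called. The counts were 8 (9.64%) in vehicle-labelled minus sham, beside 9.35% with 0.0483% called, and 3 (3.61%) in vehicle-labelled minus model-labelled, beside 12.9% with 0.0% called. Kcne4 had the smallest p in both comparisons with sham. It read 5.77, 5.24 and 5.57 in sham, 5.98, 6.28 and 6.29 in model-labelled and 6.20, 5.99 and 6.02 in vehicle-labelled spleen. No array of either MCAO group overlapped sham, with differences of 0.66 ± 0.15 (adjusted p = 0.211) and 0.54 ± 0.15 (adjusted p = 0.326), both against the same sham arrays. In white cells Kcne4 lay between 4.74 and 5.13 in all groups. Kcnk6 (0.47 ± 0.15) and Kcne3 (0.35 ± 0.13) followed in model-labelled minus sham, and Kcnv2 (0.45 ± 0.15) and Kcnj5 (0.43 ± 0.14) in vehicle-labelled minus sham. Between the MCAO groups Kcnk9, Kcnj5 and Kcna7 had the smallest p, with differences of 0.31, 0.38 and 0.33. Kcnj8, the spleen gene of the set, had group means of 7.77, 7.92 and 7.64.

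**Figure D5:**
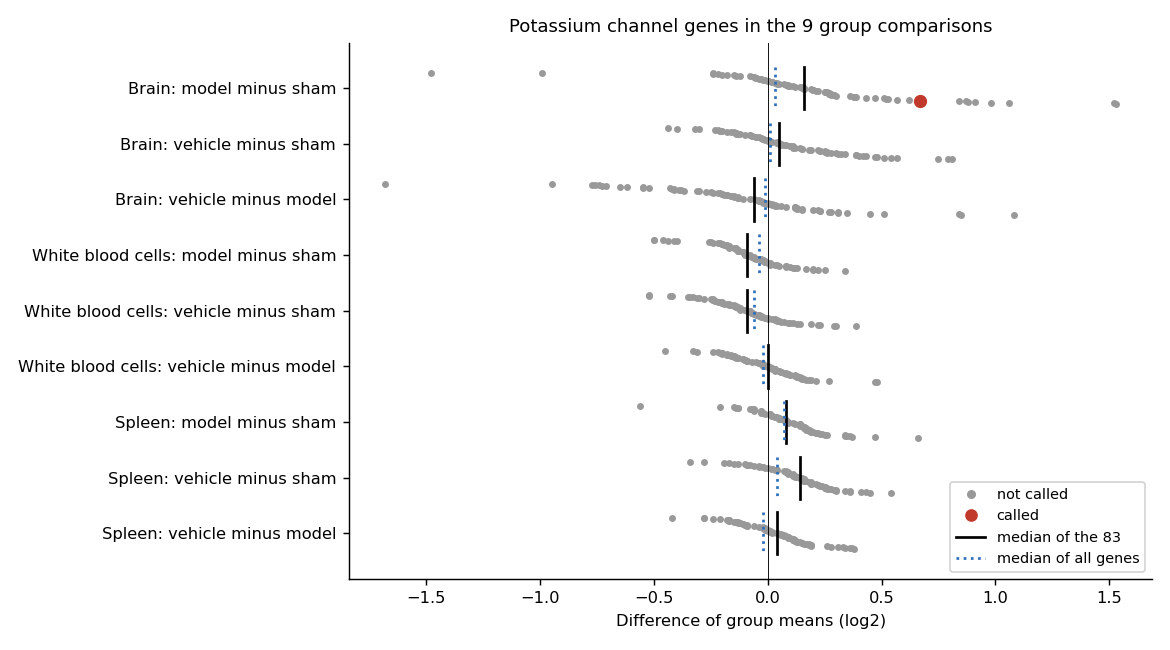
Differences of group means (x axis, log2) of the 83 genes in the 9 group comparisons (rows), each from 3 arrays per group. Each point is a gene, the black line is the median of the 83 genes and the dotted line the median of all 14506 genes. The single called gene, Kcnj8 in model-labelled minus sham brain at 0.67, is drawn larger, and the spread is widest in the brain, from -1.48 to 1.53 in that comparison. The ends of that range, Kcnj16 and Kcnv1, rest on the brain array of sham rat 5.

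Whether a group difference was itself different between tissues was tested in 1 fit of all 27 arrays, 9 differences for each gene. This fit used 1 variance per gene for all tissues, although the tissues differ in cells and level. Kcnh5 was called in 1 of them: the model-labelled minus sham difference was 1.19 ± 0.29 larger in brain than in white cells (adjusted p = 0.038), beside 1.07% of all genes called. Its white cell values were 3.63, 3.12 and 3.25 in sham and 3.10, 3.34 and 3.16 in model-labelled rats, and thus overlapped. They were low, below the array medians of 4.96 to 5.31. Without the brain arrays of the pair that stands apart the Kcnh5 difference was 0.94 ± 0.26 (adjusted p = 0.0865). The call was also lost without the brain array of model-labelled rat 2 or 3 or of sham rat 3 or 5, or the white cell array of any model-labelled rat or of sham rat 3 or 5, with adjusted p up to 0.134. With the rat as a random block 5 differences were called. Besides Kcnh5 (1.19, adjusted p = 0.0225) these were Kcnj8 (0.85 ± 0.20, adjusted p = 0.0273) and Kcns2 (0.86 ± 0.22, adjusted p = 0.0466) in the same comparison of brain and white cells. The other calls were Kcnh5 for brain against spleen (1.12 ± 0.27, adjusted p = 0.0387) and Kcnv2, whose vehicle-labelled minus sham difference was lower in white cells than in spleen (-0.69 ± 0.16, adjusted p = 0.0339). Kcnv2 lay between 3.71 and 4.54 on these arrays. In the other 8 differences between tissues no member was called without the block. Beside this, for brain against white cells 0.862% (vehicle-labelled minus sham) and 0.386% (vehicle-labelled minus model-labelled) of all genes were called. For brain against spleen the shares were 0.82% (model-labelled minus sham), 0.145% (vehicle-labelled minus sham) and 0.6% (vehicle-labelled minus model-labelled), and for white cells against spleen, in the same order, 0.0%, 0.772% and 0.0276%.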

How the data were processed

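The authors deposited 1 table of 27596 probe values for 27 arrays, made with RMA per the submitters' processing notes (version not given in the sources used here). The deposited values ran from 1.53 to 13.49 with array medians of 4.96 to 5.31 and were taken as log2 intensities. Whether tissues were normalized together is not stated. Probes with 1 gene symbol (15310) were kept, and 1 Kcn probe with several symbols was left out. RefSeq matched 15279 by Entrez identifier and changed 0 symbols. The genome build is not given in the sources used here, so no positions are printed.

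Each tissue (9 arrays), the 9 sham arrays, and all 27 arrays for differences between tissues each had a limma fit (lmFit and eBayes, 2-sided; limma 3.58.1, R 4.3.3). P-values were adjusted by Benjamini-Hochberg over 14506 genes, and the script was tested on simulated data. With 3 arrays per group, their number limits the precision. Groups came from titles, and no batch or date is given there. In a group, a title number links the tissues of 1 rat: between tissues, a rat's deviations from its group means had r of -0.058 to 0.517, 15 of 27 pairs above 0.1, beside 2 of 54 pairs of other rats. Named genes were the 6 largest called differences each way without overlap per tissue comparison, called genes (or the 3 smallest p) per group comparison, the smallest p of each class in model minus sham brain, and up to 3 called genes of other lists. Genes described for the brain arrays that stand apart, further members of a class, and marker genes were chosen after their values were seen. The genes, lists and tests were chosen with earlier results of these data known. Alternatives changed the arrays in the fit, normalization, low-value filter, probe summary, variance model, array weights, fold, block and each array.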

Additional observations from a re-analysis of the deposited data

Results flagged for a closer look

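Kcnh5 is listed here because the test of the difference itself separated the brain from the white blood cells: the model-labelled minus sham difference was 1.06 log2 in brain and -0.13 in white cells, and their difference was 1.19 ± 0.29 (limma, adjusted p = 0.038). All 3 model-labelled brain arrays (6.89, 7.56 and 7.32) lay above the sham arrays (6.16, 6.74 and 5.70), while the white cell arrays overlapped between 3.10 and 3.63. These white cell values lay below the array medians of 4.96 to 5.31. A low value cannot be told from an absent transcript, so a fall in white cells might not be seen. In the brain alone the gene was not called (adjusted p = 0.106), with a standard error of 0.26. In the fit of all 27 arrays, which used 1 variance per gene for all tissues, the error of the brain difference was 0.20. Without the brain arrays of sham rat 5 and the vehicle-labelled rat numbered 2 the difference between tissues was 0.94 ± 0.26 (adjusted p = 0.0865), and over all alternatives it lay between 0.94 and 1.46.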

How the results depend on the processing

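The limit on all group comparisons is 3 arrays per group, with a median standard error of 0.20 in brain, 0.13 in white cells and 0.15 in spleen. Of 1332 values of named genes under alternatives, 1258 kept direction and side of the threshold, 57 lost the call, 13 gained it and 4 reversed, and the cause was not tested. The reversed values, all in model-labelled minus sham brain and all uncalled, were Kcnab1 at -0.09 (without sham rat 5, in a range of -0.09 to 0.51 over left-out arrays, and without the pair of arrays that stand apart) and, with the replicate number as a block, Kcnc1 at -0.19 and Kcnd2 at -0.05. In that comparison the count of 1 became 0 with a fold of at least 2, quantile normalization, median centring, the variance trend and robust prior, and the replicate block, 3 with array weights, 7 in the fit of all 27 arrays, 2 without the pair, and 0 to 1 when each array was left out. The replicate number is not a shared animal across groups: 2 of 12 pairs of like-numbered arrays in different groups correlated above 0.1, with a median of -0.03. For vehicle-labelled minus sham brain the count was 1 in the fit of all 27 arrays and 1 with array weights. For vehicle-labelled minus model-labelled brain it was 2 in the fit of all 27 arrays and 2 without the pair. White cell calls of vehicle-labelled minus sham were 0 to 1 over left-out arrays, and spleen model-labelled minus sham had 1 in the fit of all 27 arrays (Kcne4). Among the tissue comparisons, genes above the 40th percentile alone, 31 of the 83, gave 22 calls for brain against spleen, 22 against white cells and 9 for white cells against spleen, where fewer members were tested. For white cells against spleen a fold of at least 2 gave 4 calls, median centring 31, and leaving out single arrays 9 to 26. The other tissue comparisons ranged from 48 to 61 and from 48 to 58 over left-out arrays. The rat as a block gave 57, 54 and 19 calls in the tissue comparisons and 5 for the differences between tissues. In 2 settings chosen after seeing the data, these differences had 3 calls without the brain pair, none of them Kcnh5 (Kcnip3 in 2 and Kcnf1), and 0 to 6 over left-out arrays, with 6 without the brain array of vehicle-labelled rat 2 and without the spleen array of vehicle-labelled rat 5. Besides the 5 calls above, Kcnj8 in brain and Kcns3, the block changed no call of a named gene.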
